A study of Mus musculus with 6 samples.

Results

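Fatty acid binding proteins and lipid droplet genes were described in macrophages of mouse pancreatic tumours, across 10 genes of the 53647 in the deposited table. The genes were taken by symbol: Fabp4, Fabp5, Plin2, Pnpla2, Cept1, Pparg, Acsl1, Lipe, Dgat1 and Dgat2. Each symbol occurred in 1 row, so a choice by summed count was not needed. The set was chosen by function with the counts and FPKM of this same contrast in view, Pnpla2 and Cept1 being known for their lower values, so the differences below are descriptions and not independent evidence. The macrophages came from pancreatic ductal adenocarcinoma placed orthotopically in C57BL/6 mice and were sorted by Cxcr4, a chemokine receptor that binds Cxcl12. Total RNA gave 6 libraries, 3 labelled Cxcr4+ and 3 labelled Cxcr4-, and both groups shared the strain, the tumour model and the lack of any named drug or further genetic change. The genotype field of the labels holds the sort, not an allele. The tumour cell line, the age and number of the mice, the time after implantation and the markers of the macrophage gate are not stated in the sources at hand. Nor is it stated that each library came from its own mouse, so the p-values reflect only the spread among these libraries, which may be technical.

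A macrophage that takes up fatty acids carries them in the cytosol on small binding proteins and activates them with coenzyme A. It can store them as triglyceride in droplets coated by perilipins, or release them again by lipolysis. Foamy macrophages, loaded with such droplets, are known from atherosclerotic plaques and from lipid-rich tumours. The nuclear receptor Pparg turns on many of these genes in adipocytes and in some macrophages, Fabp4 being its textbook target. The phospholipids that cover a droplet are made by the choline and ethanolamine pathway, whose last step Cept1 can carry out.

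The libraries held 46444934 to 55740671 estimated counts, and each Cxcr4+ library held more than any Cxcr4- library. The libraries numbered 2 in both groups stood apart from the rest, with a chi-square per degree of freedom of 15.04 between them and 18.6 to 29.2 between either and the other 4. Cxcr4 itself, the gene of the sort, stood at 9.27 ± 0.285 FPKM (SD, n = 3) in the libraries labelled Cxcr4+ and 7.42 ± 1.32 (n = 3) in those labelled Cxcr4-. FPKM is the count scaled to transcript length and library size, and every level given here is on that scale. Cxcr4 was higher in every Cxcr4+ library, but its RNA was also present in the Cxcr4- libraries, at 604 to 909 counts. Its log2 fold change, Cxcr4+ minus Cxcr4-, was 0.27 (SE 0.19, interval -0.16 to 0.71). The adjusted p was 0.9986 by edgeR's quasi-likelihood test and 0.9993 by DESeq2, so neither called the gene of the sort. How well the sort separated the cells was not tested, which limits every comparison below. The 12 macrophage markers summed to 8247 to 10054 FPKM in Cxcr4+ libraries and 7425 to 8617 in the Cxcr4- group, led by the lysozyme Lyz2 and by Cd68, and 0 of the 12 were at 0. Since several of the 10 genes are also adipocyte or endothelial genes, those markers were read too. Of 13 adipocyte markers 7 were at 0 in every library, among them the adipokines Adipoq and Lep and the droplet proteins Plin4 and Cidec, and the 13 summed to 1.56 to 3.98 FPKM, led by Retn and Pck1. The 13 endothelial markers summed to 0.662 to 1.38 FPKM, led by Egfl7 and Cdh5, and all 13 stayed under 1 FPKM in every library.

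The starts of Pnpla2 and Plin2 are shown because Pnpla2, the droplet lipase, was the abundant gene that separated the groups, and Plin2, the droplet coat, was the abundant gene beside it that did not. Each line gives the 250 bases before the RefSeq start in GRCm38.p6, 5′ to 3′ on the strand of the gene, with matches to the motifs searched in capitals. Pnpla2 lies on the forward strand, chr7:141454938-141455187, and Plin2 on the reverse strand, chr4:86670060-86670309.
Pnpla2: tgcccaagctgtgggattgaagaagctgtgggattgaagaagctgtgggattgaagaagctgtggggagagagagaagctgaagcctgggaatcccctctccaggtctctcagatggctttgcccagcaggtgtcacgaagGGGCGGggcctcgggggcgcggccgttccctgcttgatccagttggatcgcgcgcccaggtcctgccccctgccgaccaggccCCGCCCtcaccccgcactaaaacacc
Plin2: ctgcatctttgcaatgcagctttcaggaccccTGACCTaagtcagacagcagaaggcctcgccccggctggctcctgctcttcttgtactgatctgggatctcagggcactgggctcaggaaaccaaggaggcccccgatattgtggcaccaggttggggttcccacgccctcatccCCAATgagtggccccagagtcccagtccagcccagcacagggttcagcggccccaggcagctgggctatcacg
In Pnpla2 the capitals mark 2 GC boxes, GGGCGG, the kind of site bound by Sp1, the second of them on the opposite strand. In Plin2 they mark AGGTCA, the repeat unit that nuclear receptors bind, here on the opposite strand, and a CCAAT box. A GC box occurred in 32.7%, AGGTCA in 14.0% and a CCAAT box in 33.8% of the 32851 promoter windows of the same length. Both strands were searched, and these 3 motifs share no letters in the sequences printed. The full PPAR response element, a direct repeat of AGGTCA with 1 base between, contains that unit and occurred in 0.0335% of all windows. It occurred in 0 of the 12 windows of the 6 genes that matched the promoter table, Cept1, Plin2, Pparg, Lipe, Pnpla2 and Acsl1. Fabp4, Fabp5, Dgat1 and Dgat2 had no window and were not searched. Only the exact element was searched, and for an element this rare 0 of 12 says little. The TATA box TATAAA, the E-box CACGTG, the AP-1 site TGANTCA and the forkhead site GTAAACA were also searched, and none of them lies in the windows printed. They occurred in 12.4%, 6.02%, 6.75% and 3.17% of all windows.

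The 10 genes spanned a wide range of levels. Fabp4 had the highest mean, 251 ± 4.64 FPKM (SD, n = 6), followed by Plin2 with 230.1 ± 17.1, Fabp5 with 173 ± 7.60 and Pnpla2 with 63.8 ± 11.3. Fabp4 stood at rank 222, Plin2 at rank 242 and Fabp5 at rank 305 of all genes in the table. Those 3 genes made up 87.2 to 90.6% of the summed FPKM of the 10. Cept1 (9.46 ± 2.94), Lipe (2.96 ± 0.186), Acsl1 (2.79 ± 0.262) and Dgat1 (2.35 ± 0.382) lay between 1 and 10 FPKM, and Dgat2 (0.327 ± 0.124) and Pparg (0.0294 ± 0.0308) under 1. In this order the neighbours Fabp4 and Plin2, Lipe and Acsl1, and Acsl1 and Dgat1 overlapped over the 6 libraries, and the other 6 pairs of neighbours did not.

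**Figure D1:**
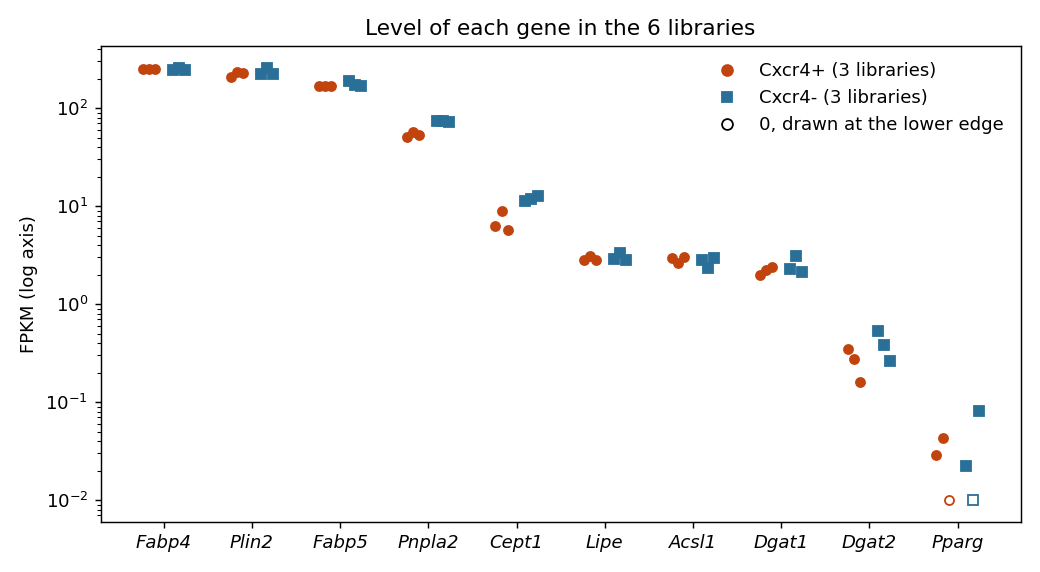
FPKM of the 10 genes in each of the 6 libraries on a log axis, ordered by mean, with circles for the 3 Cxcr4+ and squares for the 3 Cxcr4- libraries; open symbols mark values of 0. Fabp4, Plin2 and Fabp5 lie above 100 FPKM in every library, and the groups are apart for Pnpla2 and Cept1.

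Between the groups, Pnpla2 and Cept1 were lower in every Cxcr4+ library than in any Cxcr4- library, and the other 7 tested genes overlapped. Counts were compared by edgeR's quasi-likelihood test over 16031 genes, as Cxcr4+ minus Cxcr4-, with a threshold of 0.05 on the Benjamini-Hochberg adjusted p. Of the 10 genes 9 passed the filter on low counts and could be tested, and 0 of these 9 passed the threshold, where 0.0312% of all tested genes did (5 genes, 0.0125% higher and 0.0187% lower in Cxcr4+). At an unadjusted p under 0.05 there were 2 of 9, against 4.85% of all tested genes. DESeq2, the alternative count test, passed 2 of the 9, Pnpla2 and Cept1, where it passed 0.436% of all 14466 genes it gave an adjusted p (63 genes), 0.249% of them with Cxcr4+ lower. The same 2 genes were those whose groups did not overlap in FPKM, where 10.4% of all tested genes had groups that did not overlap and 4.87% did so with Cxcr4+ lower. The median log2 fold change of the 9 was -0.09, and 7 were negative, beside a median of 0.00041 and 8000 negative among the 16031. With 3 against 3 libraries an exact permutation test of a single gene cannot give a p under 0.1.

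**Figure D2:**
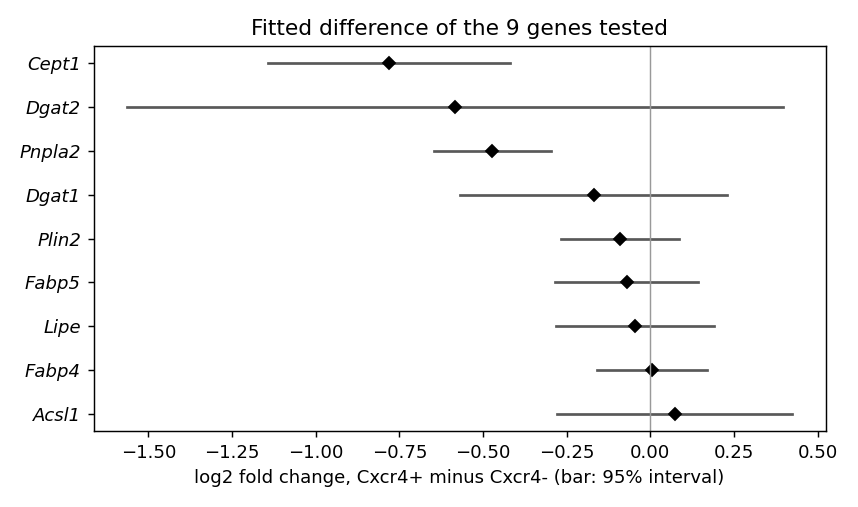
Fitted log2 fold change of the 9 tested genes, Cxcr4+ minus Cxcr4-, with its 95% interval as a bar, from edgeR. The intervals of Pnpla2 and Cept1 lie below 0, that of Fabp4 is narrow around 0, and that of Dgat2 is the widest; the intervals are not adjusted for the number of genes.

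Fabp4 and Fabp5 carry fatty acids through the cytosol, and both stood among the most abundant genes. Fabp4 (chromosome 3, 10269148 to 10273636, reverse strand, GRCm39, the build of all gene coordinates here) had 252, 254 and 249 FPKM in Cxcr4+ libraries 1, 2 and 3 and 248, 258 and 245 in Cxcr4- libraries 1, 2 and 3. The groups overlapped fully, and the coefficient of variation over the 6 libraries was 1.85%, the smallest of the 10 genes. Its log2 fold change was 0.0047 (SE 0.07), with a 95% interval of -0.16 to 0.17, a fold of 0.895 to 1.13.

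Fabp5 (chromosome 3, 10077608 to 10081667, forward strand), the epidermal type of binding protein that macrophages also make, had 169.5, 169.4 and 168.5 FPKM in Cxcr4+ and 188, 173 and 169.2 in Cxcr4- libraries. The highest value was that of Cxcr4- library 1, and that of Cxcr4- library 3 lay inside the Cxcr4+ range, so the groups overlapped. The log2 fold change was -0.07 (SE 0.09), with an interval of -0.28 to 0.14. The ratio of Fabp4 to Fabp5 lay between 1.32 and 1.502 in the 6 libraries, above 1 in each of them. A processed pseudogene copy, Fabp5l2, was listed with 0 to 2 counts per library, against 31620 to 38146 for Fabp5, so reads shared with it could be placed on either.

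These 2 genes held nearly all of their family's RNA. Fabp4 made up 56.7 to 59.9% and Fabp5 39.9 to 42.9% of the summed FPKM of the 10 genes read in the family, and Fabp3, the heart type, came next with 0.444 to 1.91 FPKM. Of the 11 other binding proteins and acyl-CoA binding proteins listed, 4 were tested, 3 positive and 1 negative, with a median log2 fold change of 0.05 and 0 past the threshold. Dbi, which binds acyl-CoA, was the most abundant of them, at 42.1 ± 2.29 against 40.1 ± 1.70 FPKM, beside Acbd3 at 9.21 ± 0.174 against 8.97 ± 1.26 and Acbd5 at 2.01 ± 0.481 against 1.85 ± 0.321 (SD, n = 3 per group, Cxcr4+ first here and below).

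Acsl1 joins long-chain fatty acids to coenzyme A. It lies on chromosome 8 at 46924074 to 46989088, forward strand, and had 2.99, 2.60 and 3.03 FPKM in Cxcr4+ and 2.85, 2.35 and 2.94 in Cxcr4- libraries. In both groups library 2 was the lowest, and the groups overlapped. Its log2 fold change was 0.07 (SE 0.15, interval -0.28 to 0.42), and it was -0.05 without Cxcr4- replicate 2. Acsl1 was a minor synthetase here, with 3.59 to 4.80% of the FPKM of its family, beside Acsl5 at 28.4 ± 1.99, Acsl4 at 21.1 ± 1.64 and Acsl3 at 12.8 ± 1.25 FPKM (SD, n = 6), while Acsl6 reached at most 4 counts.

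Of the 14 listed genes for uptake and activation, 11 were tested, 6 positive and 5 negative, with a median of 0.01 and 0 past the threshold. The membrane transporter Cd36 had 22.0, 13.8 and 18.0 FPKM in Cxcr4+ and 10.2, 7.73 and 10.3 in Cxcr4- libraries (log2 fold change 0.92, SE 0.22). The groups were apart, DESeq2 passed Cd36 (adjusted p = 0.0222) and edgeR did not (adjusted p = 0.907), the adjusted p over all alternatives being 0.0222 to 0.99996. Lipoprotein lipase Lpl, which frees fatty acids from lipoproteins, had 9.52 ± 0.759 against 7.13 ± 0.543 FPKM, and the synthetase Acsbg1 11.9 ± 0.388 against 13.2 ± 0.238. Of the 11 tested, 4 had groups that did not overlap, where 10.4% of all tested genes had such groups. Of these 4, 2 were higher in Cxcr4+, Cd36 and Lpl, and 2 were lower, Acsbg1 among them. The most abundant gene of the list, Got2, an aminotransferase that also binds fatty acids at the membrane, had 80.7 ± 2.62 against 82.3 ± 1.0005.

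Dgat1 and Dgat2 catalyse the last step of triglyceride synthesis, and both were low. Dgat1 (chromosome 15, 76386215 to 76396151, reverse strand) had 1.9996, 2.24 and 2.41 FPKM in Cxcr4+ and 2.28, 3.08 and 2.11 in Cxcr4- libraries. The highest value was that of Cxcr4- library 2, and the groups overlapped. Its log2 fold change was -0.17 (SE 0.17, interval -0.57 to 0.23), and it was -0.03 without that library. Dgat2 (chromosome 7, 98802865 to 98831926, reverse strand) had 69, 51 and 30 counts, or 0.349, 0.276 and 0.162 FPKM, in Cxcr4+ libraries. In Cxcr4- libraries it had 94, 67 and 43 counts, or 0.527, 0.381 and 0.265 FPKM. Library 1 was the highest and library 3 the lowest in both groups, which overlapped. The log2 fold change of -0.58 had an SE of 0.42 and an interval of -1.56 to 0.40, which includes 0. It was -0.26 without Cxcr4- replicate 1, -0.34 without Cxcr4+ replicate 3 and -0.87 without Cxcr4+ replicate 1.

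Dgat1 made up 81.3 to 93.7% of the summed FPKM of the pair, and was the higher of them in 6 of 6 libraries. Upstream of them, 11 of 14 listed genes of triglyceride synthesis were tested, 5 positive and 6 negative, with a median of -0.06 and 0 past the threshold. Gpam, a mitochondrial acyltransferase of the entry step, had 1.88 ± 0.105 against 1.41 ± 0.221 FPKM, the monoacylglycerol acyltransferase Mogat1 2.88 ± 0.394 against 2.44 ± 0.0688, and the groups did not overlap for either. The phosphatidate phosphatase Lpin1 had 5.30 ± 1.44 against 6.39 ± 0.385. Agpat1, the most abundant of the list, makes phosphatidic acid and had 20.3 ± 1.45 against 19.2 ± 0.878.

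Plin2 coats droplets in cells other than adipocytes and lies on chromosome 4 at 86566623 to 86588297, reverse strand. It had 208, 235 and 226 FPKM in Cxcr4+ and 225, 260.2 and 226 in Cxcr4- libraries. Library 2 was the highest in both groups, and the groups overlapped. The log2 fold change was -0.09 (SE 0.08, interval -0.27 to 0.09), so a change of Plin2 beyond a fold of 0.830 to 1.06 lay outside the interval. Plin2 held 94.9 to 95.4% of the perilipin FPKM, Plin3 stood at 11.6 ± 0.727 FPKM (SD, n = 6), Plin4 and Plin5 were at 0 counts in every library and Plin1, the adipocyte perilipin, reached 3 counts in 1 library.

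Of 20 listed genes of the droplet coat and its assembly, 10 were tested, 6 positive and 4 negative, with a median of 0.02 and 0 past the threshold. Bscl2, the seipin of droplet budding, had 4.24, 4.33 and 4.07 FPKM in Cxcr4+ and 4.91, 5.15 and 5.29 in Cxcr4- libraries (log2 fold change -0.28, SE 0.09), and its groups did not overlap. Lpcat1, an acyltransferase of droplet phospholipids, had 2.92 ± 1.12 against 4.01 ± 1.06 FPKM and the droplet GTPase Rab18 7.17 ± 1.06 against 5.81 ± 2.70. Hilpda, a hypoxia-induced droplet protein that inhibits the lipase made from Pnpla2, was the most abundant of them, at 102 ± 6.05 against 106 ± 3.04 FPKM.

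Pnpla2 encodes the lipase that takes the first fatty acid from stored triglyceride, and it was lower in all Cxcr4+ libraries. It lies on chromosome 7 at 141035111 to 141040656, forward strand. It had 50.7, 56.6 and 53.5 FPKM in Cxcr4+ and 74.3, 74.6 and 73.0 in Cxcr4- libraries. The groups did not overlap, and the gap between 56.6 and 73.0 was wider than the spread inside either group. The means were 53.6 ± 2.95 and 73.9 ± 0.853 (SD, n = 3 each), the Cxcr4- mean being 1.38 times the Cxcr4+ mean. The fitted log2 fold change was -0.47 (SE 0.08, interval -0.65 to -0.30).

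Its adjusted p was 0.3497 by edgeR's quasi-likelihood test and 6.93e-05 by DESeq2, so the call depends on the tool, and over all alternatives the adjusted p ran from 6.93e-05 to 0.9996. Leaving out each library in turn gave log2 fold changes of -0.50 to -0.44, and the value was -0.51 in the 4 libraries numbered 1 and 3. Among tested genes of at least 1 FPKM, 94.5% had a smaller absolute log2 fold change. Within each library, Pnpla2 over Plin2 in FPKM was 0.243, 0.241 and 0.236 in Cxcr4+ and 0.330, 0.287 and 0.323 in Cxcr4- libraries. Over Abhd5, the coactivator of the same lipase, the range was 7.25 to 7.88 in the Cxcr4+ group and 9.59 to 10.4 in the Cxcr4- group. Neither ratio overlapped between the groups, and both carry the difference of Pnpla2 itself.

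**Figure D3:**
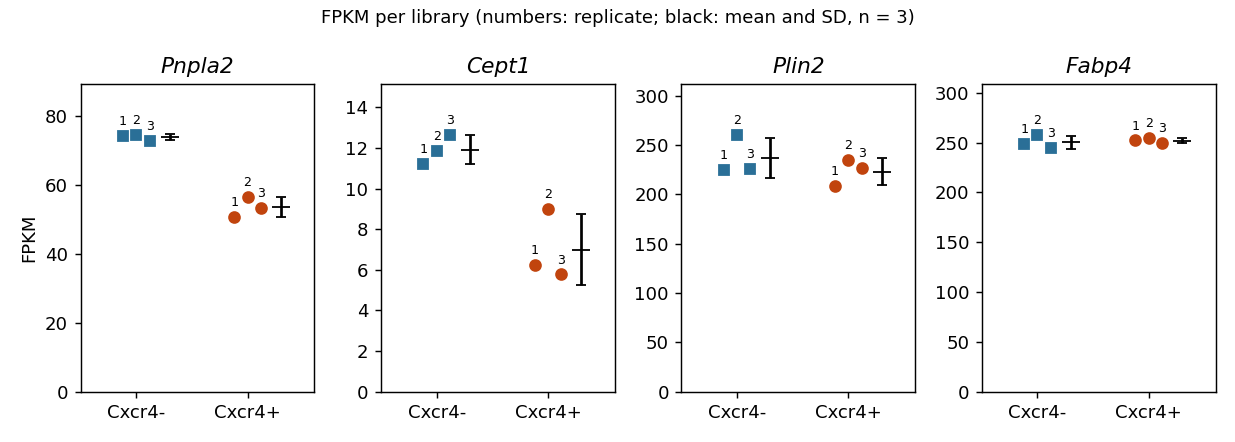
FPKM of Pnpla2, Cept1, Plin2 and Fabp4 in each library on linear axes from 0, with the replicate number beside each point and the mean and SD (n = 3) in black. The Cxcr4+ libraries lie below all Cxcr4- libraries for Pnpla2 and Cept1, while the groups overlap for Plin2 and Fabp4.

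Lipe, the hormone-sensitive lipase that acts after Pnpla2 and also splits cholesteryl esters, overlapped between the groups. It lies on chromosome 7 at 25078952 to 25098135, reverse strand, and had 2.84, 3.09 and 2.83 FPKM in Cxcr4+ and 2.88, 3.29 and 2.85 in Cxcr4- libraries. Library 2 was the highest in each group. The log2 fold change was -0.05 (SE 0.10, interval -0.28 to 0.19). Pnpla2 was 17.8 to 25.7 times as high as Lipe in FPKM. An antisense RNA on the other strand, 4732471J01Rik, overlaps Lipe with 9 to 40 counts, against 881 to 1083 for Lipe.

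Of 20 listed genes of lipolysis and its regulation other than Pnpla2 and Lipe, 13 were tested, 6 positive and 7 negative, with a median of -0.07 and 0 past the threshold. The monoacylglycerol lipase Abhd6 had 12.1 ± 0.365 against 15.2 ± 0.634 and the lysophospholipase Pnpla7 6.37 ± 0.191 against 7.40 ± 0.319. The groups did not overlap for these 2 genes, both lower in Cxcr4+, nor, in the other direction, for Nceh1, the neutral cholesteryl ester hydrolase, at 11.6 ± 0.148 against 10.4 ± 0.194. In all, 4 of the 13 had groups that did not overlap, 3 lower and 1 higher in Cxcr4+. Among all tested genes 10.4% had such groups, 4.87% with Cxcr4+ lower. Abhd5 had 7.03 ± 0.527 against 7.36 ± 0.397 FPKM, and the lysosomal lipase Lipa, the most abundant of the list, 30.7 ± 2.20 against 29.8 ± 1.48. G0s2, an inhibitor of the lipase made from Pnpla2, had at most 8 counts in a library, under the detection floor of 12 counts per library.

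Cept1 joins choline or ethanolamine phosphate to diacylglycerol, the last step of phosphatidylcholine and phosphatidylethanolamine synthesis, and it too was lower in all Cxcr4+ libraries. It lies on chromosome 3 at 106409576 to 106455118, reverse strand. It had 6.23, 9.01 and 5.77 FPKM in Cxcr4+ and 11.2, 11.9 and 12.6 in Cxcr4- libraries. The groups did not overlap, and Cxcr4+ library 2 lay closest to the Cxcr4- group. The means were 7.002 ± 1.75 and 11.9 ± 0.706 (SD, n = 3 each), a ratio of 0.588, and the log2 fold change was -0.78 (SE 0.15, interval -1.14 to -0.42). The adjusted p was 0.598 by edgeR's quasi-likelihood test and 0.00372 by DESeq2, and the alternatives together spanned 0.00372 to 0.99996. Leaving out a library gave log2 fold changes of -0.96 to -0.68, and the 4 libraries numbered 1 and 3 gave -0.998.

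Cept1 overlaps genes on the other strand at both ends. It shares 5 bases with the start of Dram2, a lysosomal membrane protein of autophagy, and 771 bases with the end of Dennd2d. Use of strand in counting is not stated in the sources at hand, so reads in those stretches cannot be told apart. Dram2 had 5.99, 7.42 and 6.35 FPKM in Cxcr4+ and 4.49, 6.68 and 5.44 in Cxcr4- libraries, and Dennd2d 1.72, 6.19 and 3.76 in Cxcr4+ and 1.86, 6.47 and 4.25 in Cxcr4- libraries. The groups overlapped for both of these genes. What reads in the shared stretches add to the Cept1 values was not tested.

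Cept1 made up 64.4 to 87.7% of the FPKM of the 3 transferases of this step. Chpt1, the choline-specific transferase, had 0.917, 0.958 and 1.19 FPKM in Cxcr4+ and 0.871, 0.855 and 0.641 in Cxcr4- libraries, so that it was higher in all Cxcr4+ libraries (log2 fold change 0.37, SE 0.19). Selenoi, the ethanolamine-specific transferase, had 1.92 ± 0.333 against 1.82 ± 0.663. Of 18 listed genes of choline and ethanolamine phospholipid synthesis other than Cept1, 15 were tested, 7 positive and 8 negative, with a median of -0.0018 and 0 past the threshold. Pcyt1a, the rate-limiting enzyme of phosphatidylcholine synthesis, which binds growing droplets, varied widely, at 3.79, 3.47 and 6.20 FPKM in Cxcr4+ and 10.6, 3.31 and 11.9 in Cxcr4- libraries. Its groups overlapped through Cxcr4- library 2. Pemt, which methylates phosphatidylethanolamine, had 1.22 ± 0.218 against 1.56 ± 0.119, and its groups did not overlap. Pcyt2, which activates ethanolamine and was the most abundant of the list, had 18.5 ± 0.523 against 18.4 ± 1.42.

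Pparg RNA was under the detection floor in every library but Cxcr4- library 3, in macrophages in which its textbook target Fabp4 stood at 251 FPKM. Pparg (chromosome 6, 115337912 to 115467360, forward strand) had 6, 8 and 0 counts in Cxcr4+ and 4, 0 and 13 in Cxcr4- libraries. Counts here can overstate the fragments behind them, and 12 counts per library, or 3 fragments, were taken as the floor, which covers counting error only. Only Cxcr4- library 3 lay above it. Pparg did not pass the filter on low counts and was not fitted, and no fold is given. Of the related receptors, Ppard had 3.01 ± 0.324 against 3.28 ± 0.548 FPKM and made up 97.7 to 100% of the FPKM of the 3 PPAR genes, while Ppara reached 4 counts in a library.

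**Figure D4:**
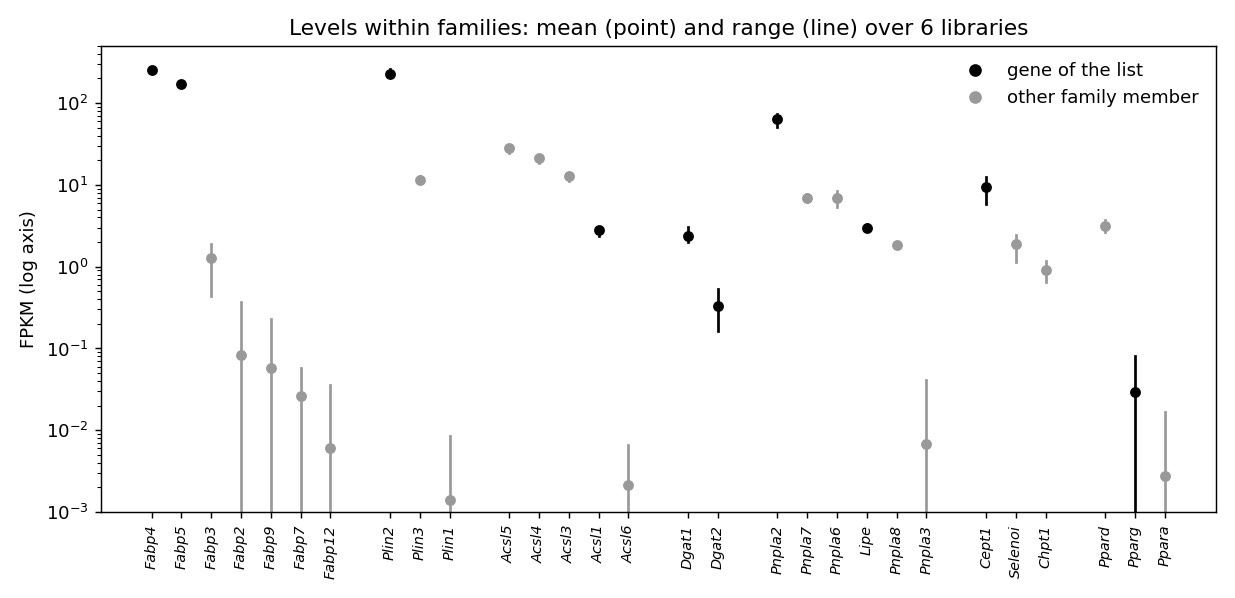
Mean (point) and range (line) of FPKM over the 6 libraries for each family on a log axis, with the listed genes in black and other family members in grey; lines that reach the lower edge include 0, and genes at 0 in every library are not drawn. Fabp4, Plin2, Pnpla2 and Cept1 lead their families, while Acsl1 and Pparg lie below relatives.

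Of 19 listed nuclear receptors and coregulators of lipid genes, 16 were tested, 3 positive and 13 negative, with a median of -0.09 and 0 past the threshold. The coactivator Ppargc1b had 3.13 ± 0.455 against 3.82 ± 0.0908 FPKM and the transcription factor Cebpa 7.08 ± 0.496 against 7.95 ± 0.4499, both with groups that did not overlap. Cebpd had 2.25 ± 0.411 against 1.80 ± 0.185, and Cebpb, the most abundant of the list, 80.5 ± 26.9 against 80.3 ± 21.7. Of 18 listed target genes of Pparg other than Fabp4, 11 were tested, 9 positive and 2 negative, with a median of 0.06 and 0 past the threshold. Cd36 and Lpl, described with uptake, were among them, and were the 2 whose groups did not overlap. The gluconeogenic enzyme Pck1 had 1.42 ± 0.940 against 0.637 ± 0.4497, and the mitochondrial carrier Ucp2, the most abundant of the list, 70.8 ± 8.85 against 67.4 ± 7.07.

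Genes of fatty acid oxidation, which uses what lipolysis frees, lay on both sides of 0. All 23 listed genes were tested, 12 positive and 11 negative, with a median of 0.0021 and 0 past the threshold. The peroxisomal thiolase Acaa1a had 18.4 ± 1.30 against 22.2 ± 2.49 FPKM, the electron transfer flavoprotein subunit Etfa 46.9 ± 4.85 against 42.1 ± 2.005 and the short-chain dehydrogenase Acads 14.3 ± 1.79 against 16.1 ± 2.32. The long-chain dehydrogenase Acadl, the most abundant of the list, had 76.1 ± 3.10 against 73.3 ± 2.10.

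**Figure D5:**
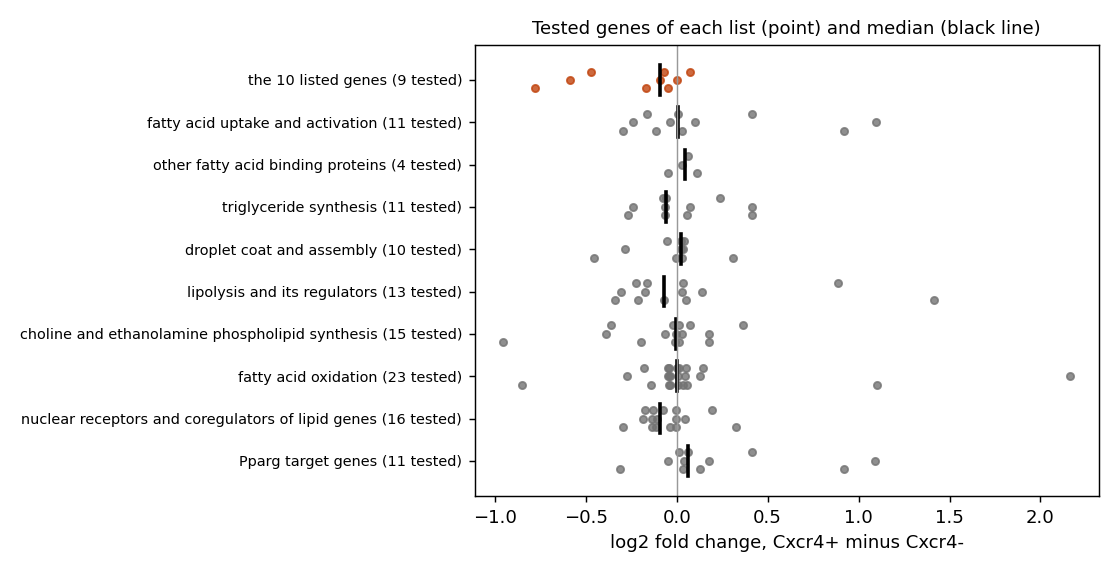
Fitted log2 fold change, Cxcr4+ minus Cxcr4-, of every tested gene in each list (points), with the median as a black line. The medians lie between -0.09 and 0.06, and several of them move or change sign when a library is left out; Pnpla2, Dgat2 and Cept1 are the 3 points to the left in the top row.

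Markers of other cells moved with the groups beside Pnpla2 and Cept1. The 12 tumour and ductal epithelial markers summed to 1.93 to 3.55 FPKM in the Cxcr4+ group and 3.94 to 7.07 in the Cxcr4- group, led by Lgals4 and Krt8, with 0 of 12 at 0. Of the 11 tested, 11 were negative, with a median log2 fold change of -1.13. The groups did not overlap for 4, all lower in Cxcr4+, where 4.87% of all tested genes did so. Both edgeR and DESeq2 called 0, and 9 of the 12 stayed under 1 FPKM in every library. The 12 fibroblast markers, led by Sparc and Col1a1, summed to 18.3, 3.75 and 4.41 FPKM in the Cxcr4+ group and 2.42, 2.51 and 3.70 in the Cxcr4- group, so every Cxcr4+ sum was the higher. Of the 10 tested, 9 were positive, with a median log2 fold change of 1.56. In 4 of the 10 the groups did not overlap, all higher in Cxcr4+, where 882 of all 16031 tested genes did so. Of the 10, edgeR called 0, where it called 0.0312% of all tested genes. DESeq2 called 2, where it called 0.436% of the 14466 genes it gave an adjusted p. Lum alone was at 0 in every library. Without Cxcr4+ replicate 1 the log2 fold change was -0.45 for Pnpla2 and -0.72 for Cept1. The remaining Cxcr4+ sums were still all higher for fibroblast and all lower for epithelial markers. That fit therefore does not separate either set of markers from Pnpla2 and Cept1. The endothelial markers summed to 0.671 to 1.38 FPKM against 0.662 to 1.06. Of the 5 tested, 4 were positive, with a median log2 fold change of 0.56, and both edgeR and DESeq2 called 0. In 1 of the 5 the groups did not overlap, higher in Cxcr4+, where 882 of all 16031 tested genes did so. Neutrophil markers, led by S100a8 and Csf3r with 3 of 12 at 0, summed to 6.66 to 9.34 FPKM against 7.15 to 10.2. Acinar markers, led by Cela1 and Rbpjl, summed to 0.395 to 0.750 against 0.517 to 0.582, with 9 of 12 at 0, and T, NK and B cell markers, led by Cd79a and Cd3d, to 0.165 to 0.716 against 0.264 to 0.398, with 5 of 13 at 0. The part of the epithelial and fibroblast markers in the lower Pnpla2 and Cept1 values was not tested. In RNA of sorted populations, fewer cells of a kind and less RNA per cell cannot be told apart.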

How the data were processed

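RNA of 6 libraries was measured, 3 of Cxcr4+ and 3 of Cxcr4- macrophages. The authors deposited 1 table with estimated counts and FPKM per gene and library, per the file headers. The submitters' processing notes name GRCm39 and the tools HISAT2, StringTie and cutadapt. Versions, annotation release and counting settings are not stated there. The deposited estimated counts were whole. Of those between 1 and 20, 43.2% could be divided by 4, against 25% for evenly spread values, so a low count can overstate its fragments. The deposited FPKM of a gene with 0 counts was read as 0.

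The quasi-likelihood test of edgeR 4.0.16 (R 4.3.3, the older dispersion estimate) had group as its one term, TMM scaling, and genes chosen by filterByExpr with minima of 10 per library and 15 in total. This left 16031 genes, and 0.0408 to 0.0581% of a library's counts were lost. The SE is the absolute log2 fold change over the square root of F. Alternatives were DESeq2 1.42.0, limma 3.58.1 on log2(FPKM + pseudocount), other scalings, filters and dispersions, counts divided by 4, replicate blocks and leaving out each library. The alternative without both libraries numbered 2 was chosen after seeing the data. Fits were tested on simulated data. The 10 genes and the lists were chosen with earlier results of these data known, and lists carry no test of their own. Named were the 10 genes, their paralogs, and from each list up to 3 genes of smallest p with at least 1 FPKM in the higher group and the most abundant gene. From marker lists the 2 most abundant were named. A gene that this rule names is not reported here. Abhd5, G0s2, Nceh1, Selenoi, overlapping genes and genes at 0 were added after values were seen. Promoter sequences are RefSeq's (GRCm38.p6), matched by symbol for 6 of the 10 genes.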

Additional observations from a re-analysis of the deposited data

How the results depend on the processing

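Over 20 alternatives, 0 of the 9 tested genes were called in 19 and 2, Pnpla2 and Cept1, by DESeq2. The direction of Plin2, Pnpla2, Cept1, Lipe, Dgat1 and Dgat2 was the same in every alternative run. Fabp4, Fabp5 and Acsl1 changed sign when a library was left out, within -0.0119 to 0.0324, -0.12 to 0.0071 and -0.0494 to 0.17. The log2 fold change of Pnpla2 ran from -0.51 to -0.43 and that of Cept1 from -0.998 to -0.50, the smallest sizes coming from a pseudocount of 5 FPKM. Over all genes 2 were higher and 3 lower. DESeq2 gave 27 and 36, counts divided by 4 and edgeR's bias-adjusted dispersion 1 higher, library totals alone 1 lower, limma-trend with pseudocounts of 0.1 and 1 also 1 lower, limma-trend with a pseudocount of 5 gave 1 and 0, and leaving out a library 0 to 5 and 0 to 4. With the replicate number as a block 0 were higher and 0 lower, and Pnpla2 had -0.47. With that block 1495 genes had an unadjusted edgeR p under 0.05, against 777 in the main fit. Same-numbered libraries deviated together with r of 0.0383, 0.141 and 0.0451, and differently numbered libraries with r of -0.0890 to 0.0522. These values do not settle whether the numbers pair libraries. The labels do not say that they do, so the main fit had no block. Several of the list medians were not stable. Those of droplet coat, fatty acid oxidation and nuclear receptors moved by less than the SD between replicates in 19 of 19 alternatives. That of triglyceride synthesis was positive, up to 0.041, without any of Cxcr4+ replicates 1, 2 and 3 or Cxcr4- replicates 1 and 3. Leaving out a library gave medians of -0.055 to -0.011 for lipolysis, 0.078 to 0.22 for Pparg targets, -0.065 to 0.027 for uptake and -0.071 to 0.032 for phospholipid synthesis. Requiring 50 counts in 3 libraries gave -0.17 for lipolysis, and no filter gave -0.55 for the other binding proteins. Pparg had counts at or near the floor.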

Other observations

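Dennd2d, whose end overlaps Cept1, differed by replicate number more than by group, with 746 and 725 counts in the libraries numbered 1, 2495 and 2485 in those numbered 2 and 1522 and 1532 in those numbered 3. It was singled out after its values were seen, and the cause was not tested.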
